A study of Mus musculus with 64 samples.

Results

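The erythroid transcription factor network was described here through 10 genes, Gata1, Gata2, Klf1, Tal1, Lmo2, Ldb1, Zfpm1, Nfe2, Gfi1b and Bcl11a, taken by symbol from the 26286 genes of the deposited normalised count table, and all 10 were found there. RNA was sequenced in 64 libraries of 18 mice, from whole tissue, megakaryocyte-erythroid progenitors (MEP) and stem and myeloid progenitors (SMP, sorted for Kit and CD34, low for CD16/32 and without Sca or lineage markers) of spleen and bone marrow. The scat mice, of the strain CbyJ.Cby-Rasa3(scat)/Llp and homozygous scat/scat, carry a mutant Rasa3 allele on a BALB background, and pass through anemic crisis and partial remission. Remission libraries (17 libraries of 5 scat/scat mice) and older wild-type (+/+, WT) libraries (10 libraries of 3 mice) came from mice aged 32 to 58 days. Crisis libraries (18 libraries of 3 scat/scat mice) and young WT libraries (18 libraries of 7 mice) came from mice aged 23 to 28 days. The mutation is present in every cell of a scat/scat mouse. The same 3 crisis mice gave all 6 populations, whereas the young WT mice of spleen SMP were not those of the other populations.

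Red cell development depends on a small set of DNA-binding proteins and their cofactors. GATA2 is the main GATA factor of stem cells, early progenitors and mast cells. As erythroid commitment proceeds, GATA1 takes over shared binding sites and GATA2 is shut off, the exchange known as the GATA switch. GATA1 works with its cofactor FOG1 (encoded by Zfpm1) and in a complex in which TAL1, LMO2 and LDB1 link enhancers to promoters. KLF1 activates globin and red cell membrane genes, NFE2 acts at the globin locus control region and in platelet formation, GFI1B is a repressor needed in erythroid and megakaryocytic cells, and BCL11A represses embryonic and fetal globin genes.

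Libraries held 33.6 to 107.62 (median 50.6) normalised counts, in units of 1e6, and 16413 to 19940 genes above 0. Levels below are normalised counts rescaled within and between populations by median ratios, to allow comparison between libraries. Between populations they depend on this choice of scaling, so small differences there are uncertain. They are not divided by gene length, except where a level per kilobase is named. Rasa3 ranged from 1563 to 8908 in crisis and from 1261 to 13312 in young WT libraries, and its level does not read the allele. In remission and older WT, 2 mice aged 58 days lay nearer to the state opposite to their label. Mouse 2726, labelled as in remission, was below all 4 WT whole spleen libraries for 7 of the 10 factors. For the same number of factors the other remission libraries were above all 4. The share of all genes that stood apart in this way was not counted, so these numbers describe the 10 factors only. Mouse 27265 is labelled WT in 4 libraries and as a mutant in remission in its whole spleen library, which entered no comparison. In bulk RNA, fewer cells of a type and less RNA per cell cannot be told apart.

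Promoters are shown for the 3 factors that rose in spleen SMP in crisis and for Gata2, which fell there. RefSeq (GRCm38.p6) gave 12 promoters for 8 of the 10 factors, with none for Lmo2 and Nfe2. The stretches run 5′ to 3′ on the gene's strand, from 250 to 51 bases before the annotated start, and capitals mark the GATA letters AGATAA or TGATAA on either strand. These letters occur in 14.2% of 32851 mouse promoters over the same 200 bases. Gata1 (ENSMUSG00000031162, chrX:7959260-7978071, minus strand) has its stretch at chrX:7967961-7968160, Klf1 (ENSMUSG00000054191, chr8:84901928-84905291, plus strand) at chr8:84901732-84901931, Gfi1b (ENSMUSG00000026815, chr2:28609450-28621982, minus strand) at chr2:28622033-28622232 and Gata2 (ENSMUSG00000015053, chr6:88193891-88207032, plus strand) at chr6:88193641-88193840, the first of its 2 annotated starts.
Gata1: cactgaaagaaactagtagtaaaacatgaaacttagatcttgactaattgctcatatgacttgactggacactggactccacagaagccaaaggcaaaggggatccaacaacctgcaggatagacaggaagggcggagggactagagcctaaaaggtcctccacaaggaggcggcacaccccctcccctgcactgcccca
Klf1: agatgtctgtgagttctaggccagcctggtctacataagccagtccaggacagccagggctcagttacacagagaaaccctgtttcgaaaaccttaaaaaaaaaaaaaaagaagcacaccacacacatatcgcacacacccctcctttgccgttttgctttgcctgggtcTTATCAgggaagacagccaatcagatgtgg
Gfi1b: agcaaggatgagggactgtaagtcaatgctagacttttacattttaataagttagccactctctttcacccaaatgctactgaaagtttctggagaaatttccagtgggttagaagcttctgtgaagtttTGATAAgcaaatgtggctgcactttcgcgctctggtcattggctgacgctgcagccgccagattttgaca
Gata2: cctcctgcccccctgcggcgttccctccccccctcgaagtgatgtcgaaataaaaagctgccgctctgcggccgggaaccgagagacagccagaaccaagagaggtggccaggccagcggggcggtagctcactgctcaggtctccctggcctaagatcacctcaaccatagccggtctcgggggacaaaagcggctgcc
Starts are those of RefSeq and can differ from the gene coordinates given above. The Klf1 stretch thus runs into the given gene span, and the Gata1 stretch lies within it. Klf1 holds 1 match, 74 bases before its RefSeq start, and Gfi1b holds 1, 114 bases before its RefSeq start. The Gata1 stretch and both Gata2 starts hold none. Such a match describes letters and was not tested as a binding site.

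In young WT mice, MEP and SMP differed in most of the network. Gata1, Klf1, Gfi1b, Tal1 and Zfpm1 were higher in MEP, and Gata2 and Nfe2 were lower. In bone marrow 9 of the 10 factors passed the test, against 74.1% of the 15030 genes tested, and in spleen 8 passed, against 66.2% of 15090 genes. The network's share is thus near that of all genes, and only the sizes and directions below describe it. Tests are limma fits across all genes with Benjamini-Hochberg adjusted p under 0.05. The median of all genes was itself shifted by -0.106 in bone marrow and -0.103 in spleen on the log2 scale.

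**Figure D1:**
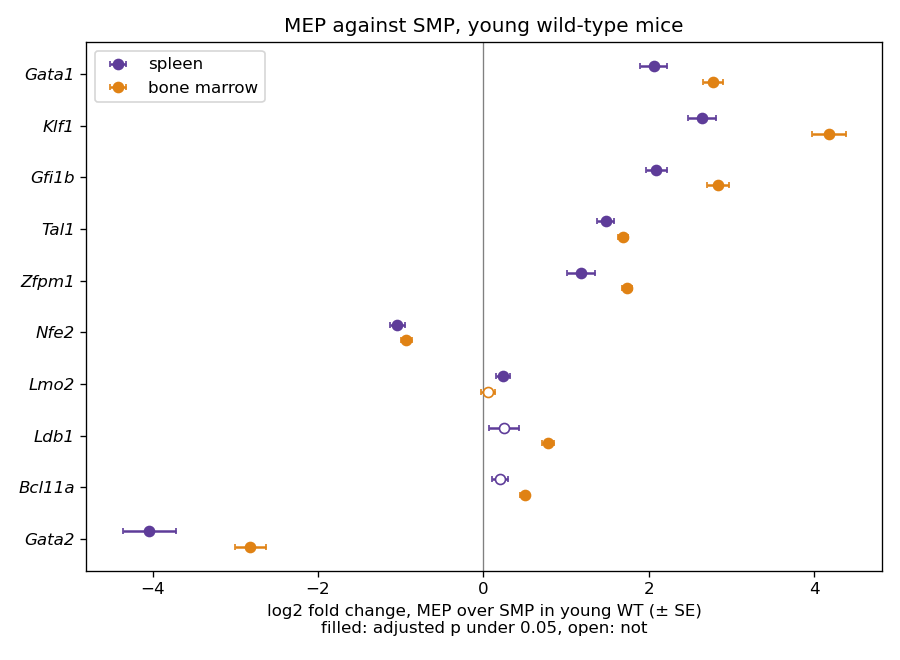
Log2 fold change of each factor in MEP over SMP of young WT mice, with its standard error, in spleen and bone marrow (3 MEP and 3 SMP libraries each). Klf1, Gata1 and Gfi1b lie far to the right and Gata2 far to the left in both tissues.

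Gata2 had 443, 546 and 1054 in spleen MEP, against 8453, 10927 and 12259 in spleen SMP. Every MEP library was far below every SMP library. The log2 change was -4.04 (SE 0.325, adjusted p = 6.97e-05), and it was -2.82 in bone marrow (SE 0.185, adjusted p = 3.27e-05). Klf1 had 23585, 22871 and 25407 in spleen MEP and 2867, 4202 and 4558 in spleen SMP, without overlap. It was the factor with the largest rise, by 2.65 in spleen (SE 0.169, adjusted p = 1.47e-05) and by 4.18 in bone marrow (SE 0.205, adjusted p = 1.57e-05). Gata1 was higher in MEP by 2.06 in spleen and by 2.78 in bone marrow. Gfi1b, a repressor that GATA1 is known to induce, was higher by 2.09 and 2.84, Tal1 by 1.48 and 1.69, and Zfpm1 by 1.18 and 1.74. Nfe2 was lower in MEP, with log2 changes of -1.04 in spleen and -0.93 in bone marrow. The adaptor genes moved little. Ldb1 was higher by 0.78 in bone marrow (adjusted p = 3.47e-05) and had 0.25 in spleen (adjusted p = 0.257). Bcl11a was higher by 0.50 in bone marrow and had 0.20 in spleen (adjusted p = 0.117). Lmo2 had 0.06 in bone marrow (adjusted p = 0.517) and 0.24 in spleen (adjusted p = 0.0443), where the deposited values without rescaling gave -0.62 (adjusted p = 0.0305), so its direction depends on the scaling.

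Over the 6 young WT populations Gata1 was ordered from spleen MEP (mean 15691) and bone marrow MEP (14270), whose libraries overlapped, through whole spleen (9223), whole bone marrow (6074) and spleen SMP (3832), which overlapped whole bone marrow, to bone marrow SMP (2074). Gfi1b kept the same order of means. Gata2 ran from spleen SMP (10547) and bone marrow SMP (8540), which overlapped, to whole spleen (356), a 29.6-fold range of means. Klf1 had a 19.9-fold range, Gata1 7.57-fold and Gfi1b 7.47-fold. Tal1, Zfpm1 and Nfe2 ranged 3.91-, 3.88- and 3.32-fold. Ldb1, Bcl11a and Lmo2 ranged 2.67-, 2.04- and 1.58-fold. These small ranges depend on the scaling. In spleen, the log2 change of MEP over SMP turned from 0.25 to -0.61 for Ldb1 with the deposited values. It turned from 0.20 to -0.66 for Bcl11a and from 0.24 to -0.62 for Lmo2. Nfe2 was the only one of the 10 with its lowest mean in MEP of both tissues and its highest in whole tissue. Per kilobase of exon, Klf1 was the highest of the 10 in spleen MEP of young WT mice (15656 ± 855 per kb, SD, n = 3) and Gata2 the lowest (126 ± 61 per kb). In spleen SMP, Lmo2 came first (6433 ± 391 per kb) and Bcl11a last (858 ± 82 per kb).

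In spleen SMP in crisis, Gata1, Klf1 and Gfi1b rose 2.01- to 2.66-fold and Gata2 fell. These 4 of the 10 factors passed the test, against 24.7% of 15151 genes. In 6 of the 10 the crisis and young WT libraries did not overlap, against 50.9% of genes. Gata1 had 7329, 13177 and 8148 in crisis, against 3075, 3503 and 4919 in young WT. The groups did not overlap, and crisis mouse 2629 was highest (log2 1.30, SE 0.262, adjusted p = 0.0278). Klf1 had 7466, 16101 and 8621 in crisis, against 2867, 4202 and 4558 in young WT (1.41, SE 0.301, adjusted p = 0.0278). Gfi1b had 3884, 8750 and 7656 in crisis, against 2647, 3496 and 3449 in young WT (1.01, SE 0.293, adjusted p = 0.0389). For both genes all crisis libraries lay above all young WT libraries, and mouse 2629 was again highest. Gata2 had 6837, 2664 and 4286 in crisis, against 8453, 10927 and 12259 in young WT. All crisis libraries were below, with mouse 2629 lowest, and the log2 change of Gata2 was -1.29 (SE 0.316, adjusted p = 0.0289). Tal1, the partner of GATA1 at many enhancers, had 12349, 25402 and 14053 in crisis, against 8236, 9156 and 10546 in young WT, and missed the threshold (0.82, SE 0.268, adjusted p = 0.0515). Nfe2 had -0.36 (adjusted p = 0.103), with crisis and young WT libraries apart. Zfpm1, Bcl11a, Ldb1 and Lmo2 had changes of -0.08 to 0.28.

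**Figure D2:**
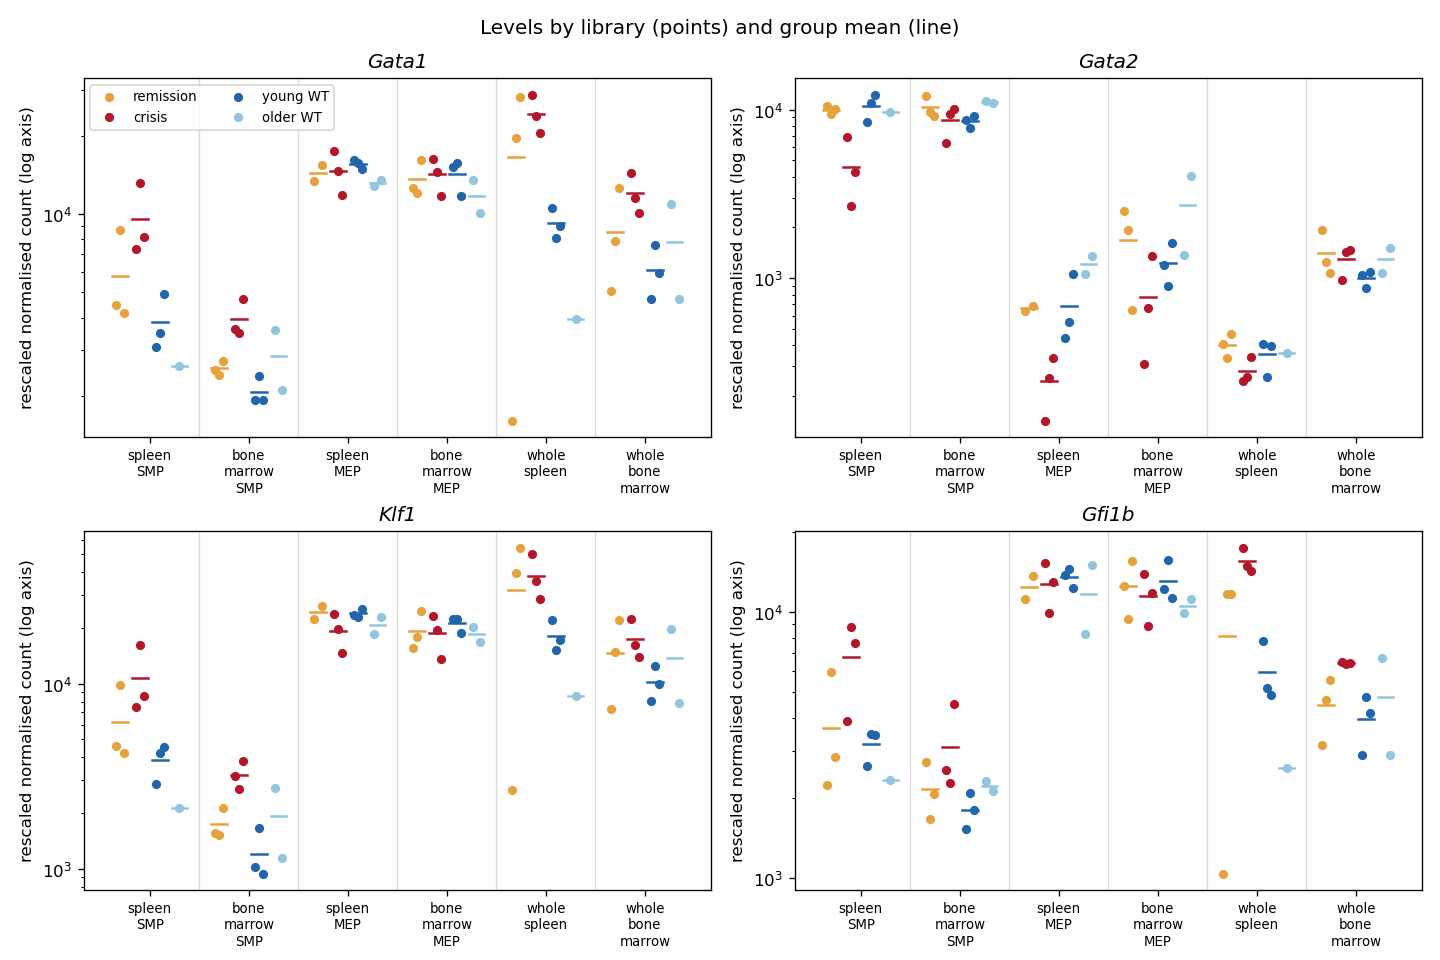
Rescaled normalised counts (log axis) of Gata1, Gata2, Klf1 and Gfi1b in each library (points) with group means (lines), for remission, crisis, young WT and older WT in 6 populations. In spleen SMP the 3 crisis libraries lie above the 3 young WT libraries for Gata1, Klf1 and Gfi1b, and below them for Gata2.

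These calls lie close to the threshold. Without young WT replicate 1, 2 or 3, or without crisis replicate 3 (mouse 2953), 0 of the 10 passed. Limma without trend and robust estimation also called 0. Under each of these settings 0 or 1 of all genes passed. In the reported fit 6 of 10 stood at an unadjusted p under 0.05, beside 6551 of 15151 genes. Marker genes of other cells moved in the same libraries. The summed level of 8 red cell markers, all above 0, was 272705, 677643 and 315580 in crisis, against 255299, 119934 and 57359 in young WT, and mouse 2629 was again highest. The 9 stem cell and gate genes summed to 21442 to 60791 in crisis and 67586 to 84815 in young WT. The 8 megakaryocyte markers summed to 3577 to 9578 in crisis and 10888 to 13778 in young WT. The 8 mast cell and basophil markers, of which Fcer1a and Tpsb2 were at 0 in all 6 libraries, summed to 540 to 2084 in crisis and 2938 to 4373 in young WT. Monocyte and macrophage, plasmacytoid dendritic cell, and T and NK cell markers were also lower in every crisis library. The part of these cells in the result was not tested.

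In bone marrow SMP in crisis, Gata1 and Klf1 rose, and no change of Gata2 was detected. These 2 of 10 passed, against 2.3% of 15178 genes, and in 7 of 10 the groups did not overlap, against 30.3% of genes. Gata1 had 3614, 3477 and 4725 in crisis, against 1917, 2385 and 1919 in young WT (log2 0.92, SE 0.144, adjusted p = 0.0237). Klf1 had 3152, 2679 and 3811 in crisis, against 1016, 1656 and 933 in young WT (1.45, SE 0.225, adjusted p = 0.0237). For both genes all crisis libraries were above all young WT libraries. Gata2 had 6372, 9474 and 10044 in crisis, against 8657, 7775 and 9189 in young WT, and the groups overlapped (-0.01, SE 0.169, adjusted p = 0.978). Gfi1b had 2550, 2277 and 4508 in crisis, against 1533, 2089 and 1801 in young WT (0.73, SE 0.248, adjusted p = 0.138). Lmo2 had 11354, 12482 and 11821 in crisis, against 17960, 15838 and 14853 in young WT, without overlap (-0.44, SE 0.0963, adjusted p = 0.0548). Tal1 (0.43, adjusted p = 0.0812), Nfe2 (-0.28, adjusted p = 0.106) and Bcl11a (0.20, adjusted p = 0.258) were also apart between the groups without passing. Ldb1 (0.26, adjusted p = 0.352) and Zfpm1 (0.01, adjusted p = 0.958) overlapped and did not pass. Leaving out crisis replicate 2 (mouse 2629), young WT replicate 1 or young WT replicate 3 left 0 of 10, beside 12, 12 and 5 of all genes. Limma without trend and robust estimation also left 0, beside 16 genes. Without crisis replicate 1 (mouse 2608) 4 passed, beside 2962 of 15167 genes. The number of factors called thus moved with that of all genes. The red cell markers summed to 93376 to 131341 in crisis and 33371 to 48794 in young WT, and the stem cell and gate genes to 66857 to 81224 in crisis and 91001 to 102237 in young WT. T and NK cell markers summed to 1057 to 1815 in crisis and 2144 to 2544 in young WT. The part of these cells was not tested.

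In MEP none of the 10 factors passed in crisis in either tissue. In spleen MEP 1.18% of 13840 genes and in bone marrow MEP 0.201% of 14421 genes passed in limma. At an unadjusted p under 0.05 stood 2 of the factors in spleen MEP, beside 3072 of 13840 genes. In bone marrow MEP 1 factor did so, beside 2055 of 14421 genes. Limma without trend and robust estimation called 0 factors in both, beside 3 of all genes in spleen MEP and 0 in bone marrow MEP. The groups did not overlap for 2 of 10 factors in spleen MEP, against 28.2% of genes, and for 2 of 10 in bone marrow MEP, against 19.2%. Gata1 had 17471, 14680 and 11899 in spleen MEP in crisis, against 16253, 15817 and 15002 in young WT. The crisis libraries lay on both sides of the young WT libraries (log2 -0.11, SE 0.136, adjusted p = 0.667). Gata2 had 142, 256 and 336 in crisis, against 443, 546 and 1054 in young WT. The groups did not overlap, but the change of -1.46 (SE 0.397) did not pass (adjusted p = 0.0985), and the deposited values without rescaling called it. In bone marrow MEP, Gata2 had 311, 665 and 1359 in crisis, against 1202, 897 and 1610 in young WT, with overlap (-0.87, SE 0.513, adjusted p = 0.452). The other 9 factors had changes of -0.34 to 0.13 in spleen MEP and -0.24 to 0.27 in bone marrow MEP. In spleen MEP mast cell and basophil markers, with Tpsb2 at 0 in every library, summed to 38.4 to 51.3 in crisis and 87.3 to 394 in young WT. Megakaryocyte markers (5 to 8 of 8 above 0 in crisis libraries) summed there to 850 to 1195 in crisis and 1229 to 1918 in young WT. T and NK cell markers summed to 37.0 to 66.6 in crisis and 183 to 246 in young WT. Plasmacytoid dendritic cell markers summed to 2665 to 2939 in crisis and 3144 to 3492 in young WT. Of these 6 markers, 3 to 4 were above 0 in crisis libraries and 4 to 6 in young WT libraries. In bone marrow MEP the red cell markers summed to 359899 to 511419 in crisis and 244989 to 277937 in young WT, and neutrophil granule and T and NK cell markers were lower in every crisis library. Their part in these values was not tested.

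The effect of crisis was set against itself between sorted populations, with the mouse as a random block. In spleen only the crisis mice gave both populations, so the block paired no young WT mice there. In spleen the effect in SMP exceeded that in MEP for Gata1 by 1.41 (SE 0.306, adjusted p = 0.0314) and for Klf1 by 1.75 (SE 0.363, adjusted p = 0.0312). These 2 of 10 passed, against 5.1% of 14853 genes, while the median of all genes was 0.118. In bone marrow 3 of 10 passed, against 1.49% of 15066 genes. The SMP effect exceeded the MEP effect for Klf1 by 1.66 (SE 0.291, adjusted p = 0.0266) and for Gata1 by 0.92 (SE 0.204, adjusted p = 0.04999), and it was lower for Nfe2, at -0.55 (SE 0.0955, adjusted p = 0.0238). Gata2 fell in spleen SMP and did not pass in spleen MEP, and the difference of its effect between them did not pass (adjusted p = 0.876). Without the block 0 of 10 passed in either tissue. Leaving out any 1 of the mice 2629, 2658, 2953 or m25dwt left 0 in bone marrow. In spleen any 1 of 8 mice (2629, 2658, 2685, 2805, 2808, 2810, 2953 or m25dwt) left 0, while without mouse 2608 there were 5. The number of all genes called under these settings is not given here.

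Between tissues, the crisis effect in spleen minus that in bone marrow called 0 of 10 factors in whole tissue, MEP and SMP, against 27.5% of 16326 genes in whole tissue and 0% in MEP and in SMP. At an unadjusted p under 0.05 stood 4 factors in whole tissue, 1 in MEP and 1 in SMP, and limma without trend and robust estimation called 0 in each. Whole tissue had 4 without mouse 2658 and 1 without mouse 2685, and SMP had 1 without mouse 2608. Counts of all genes at the unadjusted cut and with a mouse left out are not given here, so these numbers describe the 10 factors only. The lowest adjusted p among the 10 in SMP was 0.104, for Gata2, so its fall in spleen SMP was not shown to differ from bone marrow SMP.

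The balance of the GATA pair was read as log2 of Gata1 over Gata2 in each library, which is not corrected for gene length and is compared between groups only. In spleen SMP it was 0.10, 2.31 and 0.93 in crisis, against -1.46, -1.64 and -1.32 in young WT. All crisis libraries had more Gata1 than Gata2 counts and all young WT libraries had fewer. The difference of means was 2.58. For bone marrow SMP it was -0.82, -1.45 and -1.09 in crisis, against -2.17, -1.70 and -2.26 in young WT, a difference of 0.93 without overlap. In whole spleen the difference was 1.72, also without overlap. In each of these 3 the exact two-sided permutation test gave p = 0.1, the smallest that 3 against 3 mice allow (0.2 after adjustment over 6 populations), so the threshold could not be reached. In spleen MEP (1.34, exact p = 0.2), bone marrow MEP (0.87, exact p = 0.4) and whole bone marrow (0.65, exact p = 0.3) the groups overlapped.

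**Figure D3:**
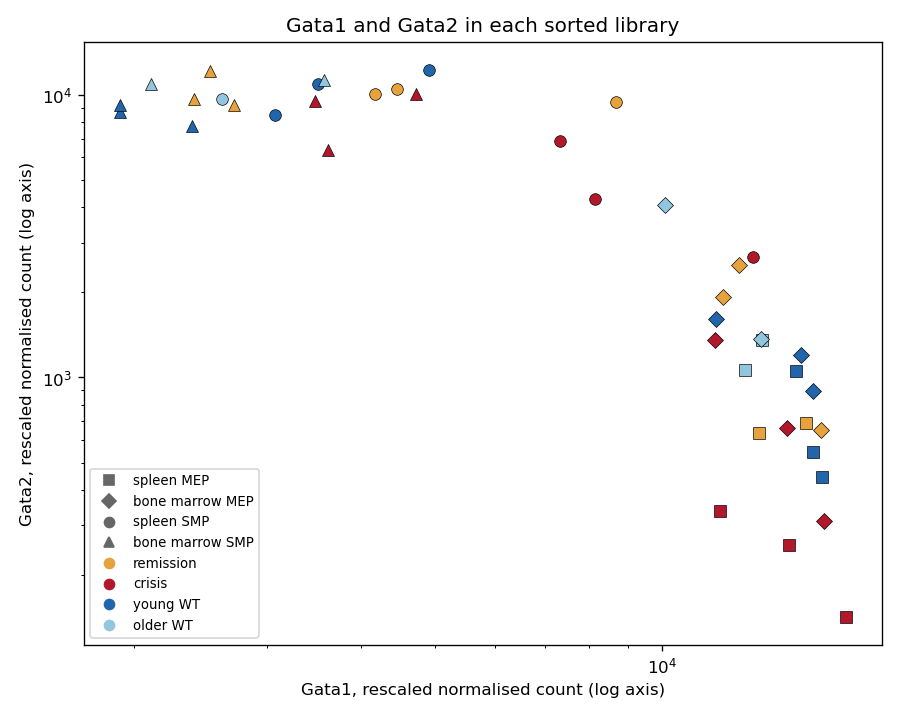
Gata1 (x axis) and Gata2 (y axis), both as rescaled normalised counts on log axes, in each sorted library; shapes give the population and colours the state. MEP libraries lie at high Gata1 and low Gata2 and most SMP libraries at the opposite end. In the 3 spleen SMP libraries in crisis Gata2 was 2664 to 6837. Those of mice 2608 and 2953, with log2 ratios of 0.10 and 0.93, lie between the MEP and the other SMP libraries in that ratio. That of mouse 2629 (Gata1 13177, Gata2 2664) lies within the range of the older WT bone marrow MEP libraries (Gata1 10082 to 13506, Gata2 1367 to 4066).

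In whole spleen in crisis most of the network rose. The groups did not overlap for 7 of 10 factors, against 58.1% of genes, and the same number passed the test, against 46.8% of 16095 genes. Tal1 had 93368, 89061 and 58865 in crisis, against 29934, 22879 and 21079 in young WT (log2 1.69, SE 0.219, adjusted p = 0.000405). Nfe2 had 48116, 46592 and 40107 in crisis, against 19045, 13838 and 14657 in young WT (1.51, SE 0.166, adjusted p = 0.000175). For both genes every crisis library was above every young WT library. Gata1 had 28886, 23812 and 20523 in crisis, against 10594, 8072 and 9002 in young WT (1.40, SE 0.17, adjusted p = 0.000298). Gfi1b rose by 1.41, Zfpm1 by 1.10, Klf1 by 1.05 and Lmo2 by 0.68. Gata2 had 244, 261 and 340 in crisis, against 409, 260 and 399 in young WT, with overlap (-0.32, adjusted p = 0.36). Bcl11a (0.40, adjusted p = 0.11) and Ldb1 (-0.18, adjusted p = 0.446) did not pass. The fit that shares its spread with remission and older WT called 0 of 10, beside 2441 of 16093 genes. Leaving out 1 library gave 7 to 8 factors, beside 5581 to 7886 genes. B cell markers, all 8 above 0, summed to 5567 to 14049 in crisis and 95939 to 113594 in young WT, T and NK cell markers to 1332 to 3507 in crisis and 19798 to 30427 in young WT, and red cell markers to 12237816 to 25554982 in crisis and 10076505 to 10409064 in young WT. Megakaryocyte markers, whose cells also use GATA1, FOG1, NFE2 and GFI1B, summed to 4868 to 6367 in crisis and 2957 to 4498 in young WT. Mast cell and basophil markers summed to 722 to 777 in crisis and 1973 to 2206 in young WT, and plasmacytoid dendritic cell markers to 2815 to 3255 in crisis and 6347 to 8197 in young WT. Their part in the result was not tested.

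In whole bone marrow in crisis, Tal1, Gata1, Nfe2 and Gfi1b rose. These 4 of 10 passed, against 8.87% of 16229 genes, and 5 of 10 did not overlap, against 32.8% of genes. Tal1 had 39835, 32524 and 25607 in crisis, against 12678, 14365 and 12154 in young WT (1.30, SE 0.169, adjusted p = 0.00872). Nfe2 had 29001, 24821 and 27806 in crisis, against 11662, 15851 and 14185 in young WT (0.98, SE 0.14, adjusted p = 0.011). Both were apart between the groups. Gata1 had 14376, 11586 and 10123 in crisis, against 4696, 7593 and 5934 in young WT (1.0, SE 0.198, adjusted p = 0.0254). Gfi1b had 6489, 6351 and 6426 in crisis, against 2912, 4809 and 4160 in young WT (0.73, SE 0.178, adjusted p = 0.0435). Klf1 had 22412, 16155 and 13903 in crisis, against 8066, 12524 and 9968 in young WT, and missed the threshold (0.77, SE 0.214, adjusted p = 0.0612). Zfpm1 (0.42), Lmo2 (0.38), Gata2 (0.34), Bcl11a (-0.11) and Ldb1 (-0.12) did not pass, and their groups overlapped. Without young WT replicate 3 (mouse 2955) 0 of 10 passed, beside 102 of all genes. Without crisis replicate 2, crisis replicate 3 or young WT replicate 1 there were 2 that passed, beside 211, 281 and 263 genes. Limma without trend and robust estimation called 0, beside 23 genes, and the fit of all 4 groups called 1, beside 1386 genes. B cell markers summed to 5141 to 56295 in crisis and 98696 to 118761 in young WT, and red cell markers to 7187339 to 9622264 in crisis and 3166872 to 6108773 in young WT. Megakaryocyte markers summed to 5400 to 7078 in crisis and 7842 to 10971 in young WT. Neutrophil granule markers were higher in every crisis library, at 1127646 to 1399765 in crisis and 1092104 to 1100174 in young WT. Their part was not tested.

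**Figure D4:**
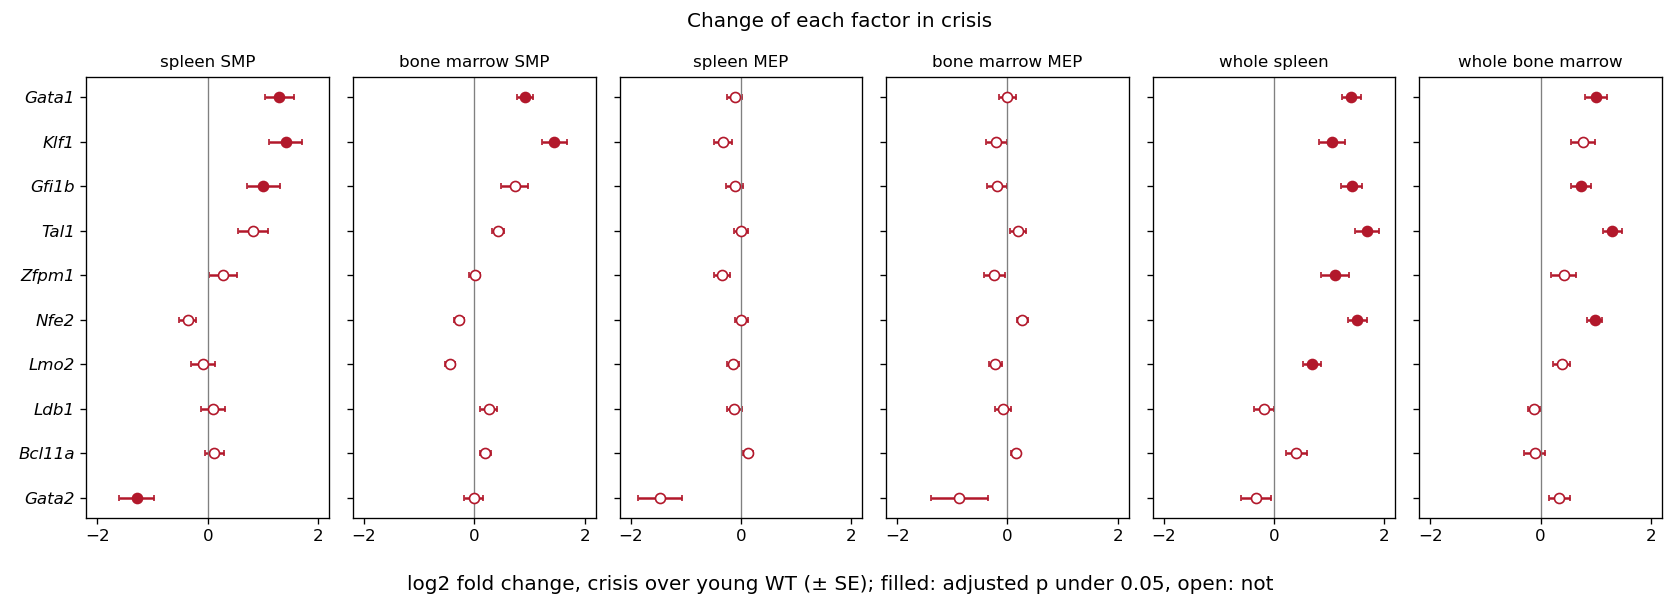
Log2 fold change of each factor in crisis over young WT with its standard error (3 libraries a group), in 6 populations; filled points passed an adjusted p of 0.05. Filled points stand for 4 factors in spleen SMP, 2 in bone marrow SMP, 7 in whole spleen and 4 in whole bone marrow, and no point is filled in MEP.

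Lists of related genes were counted beside the network and are set against the share of all genes called in the same direction. In spleen SMP 13.2% of all genes were called higher and 11.5% lower in crisis, in bone marrow SMP 1.26% higher and 1.04% lower, in whole spleen 22.9% higher and 23.9% lower, and in whole bone marrow 4.73% higher and 4.15% lower. The split in spleen SMP depends on the scaling, with 2003 genes higher and 1736 lower in the reported fit, against 154 higher and 2167 lower in the deposited values and 1579 higher and 2058 lower with 1 scaling over all libraries. In bone marrow SMP the reported fit had 191 higher and 158 lower, against 311 higher and 63 lower in the deposited values. Few genes of any kind were called in spleen SMP without some libraries, with 0 without young WT replicate 1 or 3 or crisis replicate 3, and 1 without young WT replicate 2, so each list below then had 0 calls there, as it did in limma without trend and robust estimation.

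Of 19 measured erythroid target genes, 11 rose and none fell in spleen SMP (median log2 1.63, all genes -0.04), and 8 rose in the deposited values. Bone marrow SMP had 11 that rose (median 1.21, all genes 0.00), and 1 rose without crisis replicate 2, young WT replicate 1 or young WT replicate 3, and 6 without crisis replicate 3. In whole spleen 15 rose (median 1.16, all genes -0.04), and none in the fit of all 4 groups. In whole bone marrow 13 rose (median 1.0, all genes 0.02), 4 without young WT replicate 3 and 6 without crisis replicate 2. Rhag, a red cell membrane protein of the Rh complex, rose by 3.41 in spleen SMP (15195 ± 10218 in crisis, 1087 ± 181 in young WT, SD, n = 3 each, adjusted p = 0.0278). Tfrc, the transferrin receptor, rose by 3.09 there (56103 ± 28142 in crisis, 6056 ± 357 in young WT, adjusted p = 0.0211). In MEP, Tfrc was the single target called, in bone marrow (1.33, adjusted p = 0.00796), and in spleen MEP limma called 0 of 19, while the deposited values called 8 higher and 1 lower there.

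Of 13 factors of other blood lineages, none rose and 11 fell in spleen SMP (median -1.28, all genes -0.04), 10 fell in the deposited values, and 7 fell without crisis replicate 2. Among them were Gfi1, a repressor in granulocytic cells (log2 -1.86, 366 ± 179 in crisis, 1217 ± 229 in young WT, adjusted p = 0.0278), and Mecom, a stem cell factor (log2 -1.74, 457 ± 216 in crisis, 1406 ± 274 in young WT, adjusted p = 0.0278). In bone marrow SMP 3 of 13 fell, with Gfi1 (-0.71, adjusted p = 0.024) and Erg (-0.67, adjusted p = 0.017) as the largest, and 0 fell without crisis replicate 2, young WT replicate 1 or young WT replicate 3, 1 without young WT replicate 2 and 6 without crisis replicate 1. Whole spleen had 6 that fell, with Fli1 (-2.35) and Irf8 (-1.90) as the largest, and 1 that rose, and without crisis replicate 2 or young WT replicate 1 or 3 it had 4 that fell and none that rose. Whole bone marrow had 1 that fell, Erg (-0.45, adjusted p = 0.0483), and 0 when any library but crisis replicate 1 was left out.

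Of 20 cofactor partners, 2 fell and none rose in spleen SMP, where 11.5% of all genes were called lower and 13.2% higher. They were Cbfa2t3, a corepressor found in the TAL1 complex (-1.18, adjusted p = 0.0285), and Bach1, a heme-regulated repressor (-0.50, adjusted p = 0.0466). Of the same 20, limma called 0 in bone marrow SMP, where 2.3% of all genes were called. In whole spleen 7 rose, against 22.9% of all genes called higher, and 1 fell, against 23.9% called lower. The largest were Ssbp2, which stabilises LDB1 complexes (1.73, adjusted p = 4.85e-05), and Bach1 (1.27, adjusted p = 0.000621). In whole bone marrow 4 rose, against 4.73% of all genes called higher, and 2 fell, against 4.15% called lower. Tcf3 (-1.12, adjusted p = 0.0426) and Ssbp2 (0.91, adjusted p = 0.00981) were the largest. There 0 were called without young WT replicate 3, 1 without crisis replicate 2, crisis replicate 3 or young WT replicate 1, and 2 without young WT replicate 2. Of 13 other erythroid regulators, 2 rose in spleen SMP, against 13.2% of all genes called higher, and 1 fell, against 11.5% called lower. The cell cycle regulators E2f4 (1.26, adjusted p = 0.0304) and E2f2 (1.25, adjusted p = 0.0423) were largest there. Bone marrow SMP had 1 that rose and 1 that fell, against 1.26% of all genes called higher and 1.04% lower. In whole spleen 8 rose and 2 fell, against 22.9% called higher and 23.9% lower. In whole bone marrow 5 rose, against 4.73% called higher, with 0 without young WT replicate 3, 1 without crisis replicate 3 and 2 without crisis replicate 2 or young WT replicate 1.

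Of 6 genes linked to the GATA exchange, 1 fell in each SMP population, Cd34, a stem and progenitor surface marker used in the SMP gate (-1.45 in spleen, adjusted p = 0.0337, and -0.74 in bone marrow, adjusted p = 0.0273). In whole spleen 1 fell, Hhex, a homeobox factor of blood progenitors and B cells (-2.32, adjusted p = 0.000486), and in whole bone marrow 1 fell, Myb, a progenitor factor (-1.39, adjusted p = 0.0277). Without crisis replicate 2 or any young WT library, 0 were called in bone marrow SMP. Whole bone marrow had 0 when any library but crisis replicate 1 was left out. The share of all genes called lower was 23.9% in whole spleen and 4.15% in whole bone marrow.

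Remission was compared with crisis in 6 populations. In spleen SMP, Gata1 had 4456, 8685 and 4174 in remission, against 7329, 13177 and 8148 in crisis, with overlap. Gata2 had 10519, 9391 and 10100 in remission, against 6837, 2664 and 4286 in crisis, without overlap, yet it did not pass (adjusted p = 0.197). In bone marrow SMP, Gata1 had 2523, 2404 and 2713 in remission, against 3477 to 4725 in crisis, and every remission library lay below every crisis library, without passing (adjusted p = 0.0918). Klf1 had 1558, 1515 and 2135 in remission there, against 2679 to 3811 in crisis, also without overlap (adjusted p = 0.136). Nfe2 was the only factor that passed, in bone marrow SMP, where it rose to 10762, 9238 and 9490 in remission, against 7380, 7180 and 7937 in crisis (0.39, SE 0.0827, adjusted p = 0.0474; 1.25% of 15186 genes passed). It did not pass without mice 2726 and 27265, and without any 1 crisis or remission library the number of factors called was 0 or, without crisis replicate 1, 3. In the other 5 populations limma called 0 of 10 factors, against 0% of genes in spleen SMP, spleen MEP, whole spleen and whole bone marrow, and 0.00688% in bone marrow MEP. At an unadjusted p under 0.05 stood 5 factors in spleen SMP, 1 each in spleen MEP, bone marrow MEP and whole bone marrow, and 0 in whole spleen, and limma without trend and robust estimation called 0 in all. In spleen SMP, 2 factors passed without crisis replicate 1. At the unadjusted cut stood 2540 of 16159 genes in whole bone marrow. For the other populations, and with libraries left out, the counts of all genes are not given here.

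In whole spleen, Gata1 had 1596 (mouse 2726), 19722 and 28382 in remission, against 20523 to 28886 in crisis, 8072 to 10594 in young WT and 3964 in the older WT library. The 2 remission mice other than 2726 were above every WT library and 1 of them was within the crisis range. The remission mean lay between the crisis and young WT means for 6 of the 7 factors called in whole spleen, and for 3 of 7 (Gata1, Nfe2 and Gfi1b) without mouse 2726. It lay between them for 4 of 4 called factors in spleen SMP and whole bone marrow. In bone marrow SMP it did so for 2 of 2. These counts held without that mouse. The called factors were picked by the difference between these same crisis and young WT libraries, which favours a remission mean between them. The share over all called genes was not counted, so these counts only describe the means. Remission mice were older than crisis mice, and the part of age in these differences was not tested.

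Among 12023 other genes with a mean of at least 100, those whose mean log2 level over the 24 population and state groups most resembled Gata1 were Pabpc4 (Pearson r = 0.989), Slc11a2 (0.989), E2f4 (0.986), Abcb4 (0.986) and Nipa1 (0.983). For Gata2 they were Hlf (0.989), Nwd1 (0.987), Tle6 (0.985), Ccdc8 (0.984) and Fam171a1 (0.984). Within the network, Gfi1b (0.967), Klf1 (0.963), Zfpm1 (0.954) and Tal1 (0.939) resembled Gata1 most, and Gata2 had -0.748. The groups share mice and libraries, so these values only describe the patterns.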

How the data were processed

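Per the submitters' processing notes, Bowtie2 2.2.0, RSEM, DESeq2 and GRCm38 were used, in an order that is not given in the sources used here. The authors deposited a table of normalised counts (26286 genes), a normalised signal per gene and library rather than whole reads, and a table of regularised log2 values (25287 genes) that the authors made from the same libraries. All columns were matched to samples by title.

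Deposited counts were rescaled by median ratios within each population and then by 1 constant per population. Genes averaging 10 or more were fitted on the log2 scale after adding 1, with limma 3.58.1 in R 4.3.3 (trend and robust), tested two-sided and adjusted over all genes (Benjamini-Hochberg, threshold 0.05). Crisis against young WT used those groups alone, remission against crisis all 4 groups. A random block for the mouse entered MEP against SMP in bone marrow and the 5 differences of the crisis effect. The fits were tested on simulated data. Coordinates are GRCm38 (GENCODE M21). Symbols matched 25607 genes; Ahsp, listed as a target, was not matched.

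The members and the lists were chosen with earlier results of these data known. For crisis against young WT and MEP against SMP, all 10 members are covered, by name or within a range. For remission and the differences of the crisis effect only some are named. Of other lists the 2 genes with the largest change among those called are named, and the 5 genes most like Gata1 and like Gata2. Alternatives were other scalings, the log2 table, pseudocount 10, no filter, other fits and leaving out replicates. Replicates are separate mice, 1 library per mouse and population.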

Additional observations from a re-analysis of the deposited data

Results flagged for a closer look

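The effect of crisis differed between SMP and MEP by a test of the difference itself for 5 factor and tissue pairs. In spleen the SMP effect minus the MEP effect was 1.41 for Gata1 and 1.75 for Klf1. In bone marrow it was 0.92 for Gata1, 1.66 for Klf1 and -0.55 for Nfe2. Without the mouse as a block none of the 5 passed in limma. In spleen that block paired the crisis mice only, as the young WT mice of SMP and MEP differed. Leaving out any 1 of several mice also left 0 factors called in either tissue. In limma, Gata1 in bone marrow had an adjusted p of 0.04999.

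The whole spleen library of mouse 27265, which entered no comparison because its labels contradict each other, lay above all 4 WT whole spleen libraries for 8 of 10 factors. It had 16454 for Gata1, 31679 for Klf1, 54071 for Tal1, 24712 for Lmo2, 35760 for Zfpm1, 28626 for Nfe2, 9941 for Gfi1b and 479 for Gata2. The WT libraries reached 10594 for Gata1, 22210 for Klf1, 29934 for Tal1 and 409 for Gata2. The share of all genes for which this library lay above all 4 WT libraries was not counted. Groups of 3 or fewer libraries allow no test for a single library that stands apart.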

How the results depend on the processing

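Depth is given only as normalised counts, so the spread between libraries limits precision. The number of factors called in crisis depended on the fit. So did the number of all genes called, which in bone marrow SMP ran from 5 to 2962 with 1 library left out. The counts below therefore do not single out the factors. Limma without trend and robust estimation called 0 in whole bone marrow, bone marrow SMP and spleen SMP. Sharing the spread of all 4 groups called 1 in whole bone marrow, 0 in whole spleen and 4 in bone marrow SMP. The deposited values without rescaling, which shift the median of all genes by -0.552 in spleen SMP, called 1 in spleen SMP, 1 in bone marrow SMP and 1 in spleen MEP. Leaving out 1 library gave 0 to 5 in whole bone marrow, 0 to 4 in bone marrow SMP, 0 to 5 in spleen SMP, and for remission 0 to 3 in bone marrow SMP and 0 to 2 in spleen SMP. Nfe2 in bone marrow SMP of remission mice left 0 factors called under the deposited values, no filter, no trend and robust, the 2 groups alone, and without mice 2726 and 27265. Leaving out 1 mouse gave 0 to 3 factors for SMP minus MEP in bone marrow, 0 to 5 in spleen, and for spleen minus bone marrow 0 to 4 in whole tissue and 0 to 1 in SMP. For SMP minus MEP in bone marrow the deposited values and no filter called 1 each, and no trend and robust 0. In spleen both the deposited values and no trend and robust called 0. No replicate block (mouse not paired) called 0 in both tissues. The causes were not tested.

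Counted here are 86 changes, which are all those in crisis against young WT and MEP against SMP, and those called in the other comparisons. Of these 86, 21 changed sign under some setting. Apart from Lmo2 in MEP against SMP of spleen (-0.62 with the deposited values), each was not called in the reported fit. With the deposited values these were, in MEP against SMP, Bcl11a (-0.66) and Ldb1 (-0.61) in spleen and Lmo2 (-0.10) in bone marrow; in crisis, Ldb1 (0.08), Gfi1b (0.10), Gata1 (0.09) and Lmo2 (0.07) in spleen MEP, Gata2 (0.10) in bone marrow SMP, and Bcl11a (-0.39), Ldb1 (-0.42) and Zfpm1 (-0.23) in spleen SMP. With 1 scaling over all libraries and with the log2 table, Zfpm1 in bone marrow SMP had -0.03 and -0.02, and Ldb1 in spleen SMP -0.01 and -0.01. The ranges with 1 library left out follow. In whole bone marrow Bcl11a had -0.31 to 0.06. In whole spleen Ldb1 had -0.31 to 0.01. In bone marrow MEP Ldb1 had -0.17 to 0.05, Gata1 -0.14 to 0.13 and Klf1 -0.37 to 0.01. In spleen MEP Ldb1 had -0.24 to 0.01, Gfi1b -0.25 to 0.06, Tal1 -0.11 to 0.12, Gata1 -0.25 to 0.03 and Nfe2 -0.05 to 0.13. In bone marrow SMP Gata2 had -0.13 to 0.20 and Zfpm1 -0.09 to 0.07. In spleen SMP Ldb1 had -0.07 to 0.29 and Lmo2 -0.31 to 0.09. In bone marrow (MEP against SMP) Lmo2 had -0.01 to 0.14. The other 104 changes were those not called in remission against crisis and in the differences of the crisis effect. Of them, 50 changed sign under some setting. Among these was Gata2 in SMP minus MEP of spleen (0.17, range -0.54 to 0.59). The crisis minus young WT difference of the log2 ratio of Gata1 to Gata2 kept its sign in all 6 populations with each library left out. Scaling and the fit do not enter it.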
